A study of Mus musculus with 18 samples.

Results

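The nuclear genes of the mitochondrial respiratory chain and ATP synthase were followed in single myeloid cells of the mouse yolk sac and brain. Gene rows were taken when any of their names began with Nduf, Sdha, Sdhb, Sdhc, Sdhd, Uqcr, Cox4, Cox5, Cox6, Cox7, Cox8 or Atp5. The rule reads names only, but it was chosen with earlier results of these data known. The rule found 92 of 27297 gene rows. By symbol, 37 belong to complex I, 4 to complex II, 8 to complex III, 18 to complex IV (Ndufa4 among them) and 15 to complex V, and 10 are assembly factors or other genes caught by the same name starts. Of the 92 rows, 5 join the member with a further name: Sdhaf2, Atp5j2 (joined with AK164124), Cox4nb, Ndufaf2 and Uqcr11.

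The cells came from untreated C57BL/6J mice that carry the green fluorescent reporter CX3CR1-GFP, which labels microglia, the macrophages of the brain, and their precursors. The study sorted single cells to follow microglia from their yolk sac origin to the adult brain. Every group was therefore selected on the reporter, and no reporter-free group was compared. The groups were yolk sac at embryonic day 12.5 (E12.5; 4 libraries, 671 cells), brain at E12.5 (4 libraries, 718 cells), brain at E18.5 (6 libraries, 992 cells) and adult brain (4 libraries, 631 cells), the adult age not being given as a number. Yolk sac and E12.5 brain cells were gated as CD45+CD11B+CX3CR1-GFP+, whereas E18.5 and adult cells were gated as CD45intCD11BintCX3CR1-GFP+. The change of gate coincides with the step between E12.5 and E18.5 and cannot be told apart from age there.

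The respiratory chain passes electrons from NADH and succinate to oxygen through complexes I to IV of the inner mitochondrial membrane, and complexes I, III and IV pump protons as they do so. Complex V, the ATP synthase, lets the protons return through a rotor in the membrane and makes ATP in its soluble head. A few subunits are encoded in mitochondrial DNA, and all others, including all of complex II, are nuclear genes whose products are imported. Microglia, like other macrophages, can make ATP by glycolysis as well as by this chain.

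Levels are given as CPM, the unique molecular identifiers (UMIs) of a gene summed over the cells of a library and scaled so that every library has the same total. Each UMI marks the 3' end of 1 captured transcript, so levels need no scaling by gene length. A CPM is a share of captured transcripts, so less RNA of a gene per cell and more RNA of other genes cannot be told apart. The yolk sac libraries held 269698 to 309084 UMIs each, the E12.5 brain libraries 228467 to 534219, the E18.5 libraries 143876 to 217647 and the adult libraries 74562 to 99494. Adult values are the least precise, because 3 UMIs over the whole adult group equal 8.30 CPM, against 2.01 CPM in E12.5 brain. A gene was called when edgeR's quasi-likelihood test gave it an adjusted p under 0.05 (Benjamini-Hochberg, 4883 genes tested), and log2 fold changes carry their SE. Of the 92 genes, 73 were tested. The 2 libraries of a plate always belong to 1 group and the well annotation gives 1 subject number per age, so the p-values measure the spread between libraries, which may be technical.

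The microglia and macrophage markers, 11 genes from Csf1r to Sall1, were detected in every group and summed to 15879 CPM in yolk sac, 25678 CPM in E12.5 brain, 47617 CPM at E18.5 and 71558 CPM in adult brain. The yolk sac libraries carried more border macrophage markers, at a mean of 4604 CPM against 151 CPM in E12.5 brain. Erythroid markers varied widely between libraries, from 218 to 5102 CPM in yolk sac and from 0 to 3070.1 CPM at E18.5, and T cell markers had 0 UMIs in all libraries. Granulocyte precursor markers, all 5 detected, summed to 429 to 1546 CPM in the yolk sac libraries, 78.9 to 162 CPM in those of E12.5 brain, 230.0 to 1267 CPM in those of E18.5 and 2495 to 9439 CPM in the adult ones. No pair of libraries of a group agreed within sampling noise, and no well or cell barcode combination was shared.

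The summed respiratory chain and ATP synthase transcripts were lower at E18.5 than in E12.5 brain and lower again in the adult. The 92 genes took 1.58% to 1.77% of UMIs in the 6 libraries at E18.5, with a median of 1.70%, against 2.75%, 2.84%, 2.97% and 3.18% in the libraries of E12.5 brain. They took 0.981%, 1.13%, 1.01% and 1.04% in the adult libraries. No library of one brain age reached the range of another, and in mean the E18.5 level was 57.9% and the adult level 35.4% of that in E12.5 brain. Yolk sac libraries held 3.16%, 3.05%, 2.59% and 2.74%, which overlapped E12.5 brain. The means were 2.88% ± 0.27 in yolk sac and 2.93% ± 0.19 in E12.5 brain (SD, n = 4 each).

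Each of the 5 complexes was lower at both later ages, but not by the same amount. Summed complex I transcripts reached 6066 ± 321 CPM at E18.5 and 4249 ± 284 CPM in the adult, which is 57.6% and 40.3% of the 10533 ± 1083 CPM of E12.5 brain. Complex IV reached 3328 ± 156 CPM at E18.5 and 1829.5 ± 238 CPM in the adult, or 53.3% and 29.3% of 6241 ± 519 CPM in E12.5 brain. Complex V reached 4467 ± 393 CPM at E18.5 and 2251.5 ± 86.3 CPM in the adult, or 57.9% and 29.2% of 7718 ± 353 CPM in E12.5 brain. Complex III, at 54.0% and 29.5% of its E12.5 level, was close to complexes IV and V. Complex II kept the highest share of the 5, at 71.8% at E18.5 and 55.6% in the adult, and the assembly and other genes held 82.0% and 59.1%. Much of this last sum is Cox7a2l alone, at 517 of 1015 CPM in E12.5 brain and 485 of 832 CPM at E18.5.

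The libraries at E18.5 lay below those of E12.5 brain for complexes I to V, with no overlap, while those of the assembly and other genes overlapped. The adult libraries lay below those at E18.5 for every sum but complex II. As a share of all the transcripts of the 92 genes, complex I was 35.8% in E12.5 brain, 35.7% at E18.5 and 40.9% in the adult, and complex V was 26.4%, 26.3% and 21.7% at the same ages. These differences between sums were not tested, because the genes were chosen with earlier results of these data known.

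**Figure D1:**
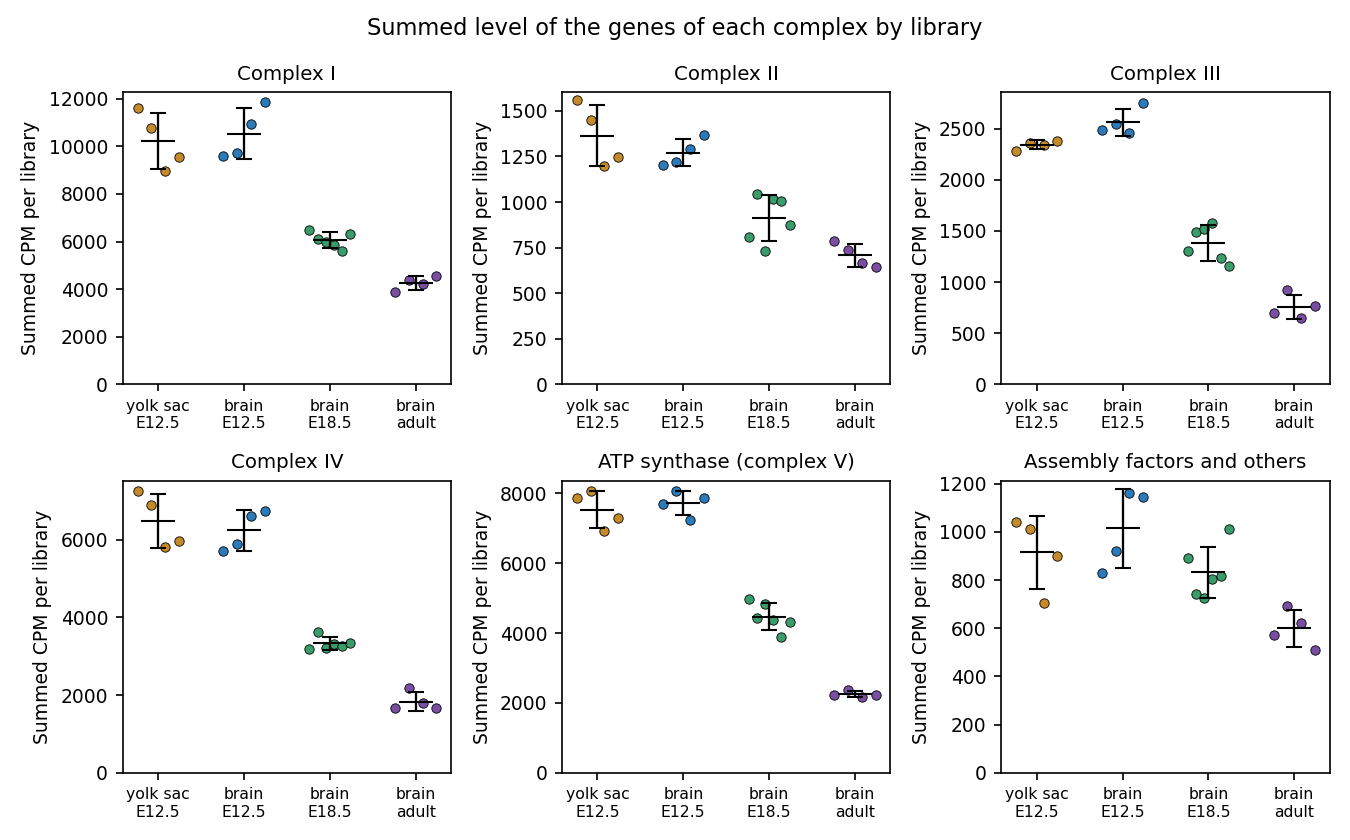
Summed CPM (vertical axes, starting at 0) of each complex and of the assembly and other genes in every library (points), with group means and SD, for yolk sac and brain at E12.5, brain at E18.5 and adult brain. For complexes I to V every E18.5 and adult library lies below every library of E12.5 brain, and complex V is at 29.2% of its E12.5 level in the adult against 55.6% for complex II.

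Gene by gene, 48 of the 73 tested members were lower and 0 higher at E18.5 than in E12.5 brain. Of all tested genes, 24.5% were called there, 13.4% lower and 11.1% higher. The median log2 fold change of the members was -0.77 against -0.03 over all tested genes, and 71 of 73 members lay below 0. In 38 members every E18.5 library was below every E12.5 brain library, which was so for 10.6% of all tested genes. Between adult brain and E18.5, 27 members were lower and 0 higher, against 21.5% of all tested genes called, 11.2% lower and 10.3% higher. The median was -0.56 for the members and -0.03 for all genes. In 28 members the adult libraries all lay below those at E18.5, against 9.13% of all tested genes. With libraries thinned to 1 total, 23 of 60 tested members were lower and 1 higher, against 29.8% of all tested genes called there, 15% lower.

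Between adult and E12.5 brain, 56 of the 73 members were lower and 0 higher, against 38.6% of all tested genes called, 20.7% lower and 17.8% higher, with medians of -1.32 and -0.07. In 55 members the adult libraries all lay below those of E12.5 brain, against 19% of all tested genes. This comparison shares its E12.5 brain libraries with that of E18.5, so the 2 are not independent. Called lower at E18.5 were 26 of 35 tested members of complex I, 1 of 4 of complex II, 4 of 6 of complex III, 7 of 8 of complex IV, 10 of 13 of complex V and 0 of 7 assembly and other genes. In adult against E18.5 brain the same counts were 10, 0, 2, 4, 10 and 1, and in adult against E12.5 brain 27, 4, 5, 6, 13 and 1. Although none was called at E18.5 against E12.5 brain, the 7 assembly and other genes had a median log2 fold change of -0.56 there, with 6 below 0.

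The number of calls changed with the choice of cells by depth and with the handling of sequencing batch. Cells held a median of 983 UMIs at E18.5 and 521 in the adult, against 1725 in E12.5 brain. With only cells of 500 to under 1000 UMIs, a choice made after seeing the data, 17 of 48 tested members were lower at E18.5, against 11.8% of all tested genes, and the median log2 fold change of the members was -0.67. This choice left 12, 9, 55 and 60 cells in the E12.5 brain libraries, against 40 to 94 in those at E18.5, so it lowered the number of cells too. No batch holds E12.5 brain together with E18.5 or adult brain. E12.5 brain is linked to the batch of E18.5 and adult brain only through the yolk sac libraries, which lie in 2 batches. With batch as a covariate, 13 of 76 tested members were lower at E18.5, against 2.85% of all tested genes, with a median of -0.66 for the members, and batch and age cannot otherwise be told apart there. The calls of 10 members at E18.5 held in every setting in which the gene was tested and without any single library: Atp5d, Cox4i1, Cox5b, Cox6a1, Ndufa13, Ndufa7, Ndufb8, Ndufv3, Uqcr11 and Uqcrq. The E18.5 and adult libraries share 1 batch. Within that batch the 2 yolk sac libraries held 2.59% and 2.74% of UMIs on the 92 genes, against 1.58% to 1.77% at E18.5. The 2 yolk sac libraries of the other batch held 3.16% and 3.05%. Yolk sac differs from E18.5 brain in tissue and gate as well, and the part of batch in the difference between ages was not tested.

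**Figure D2:**
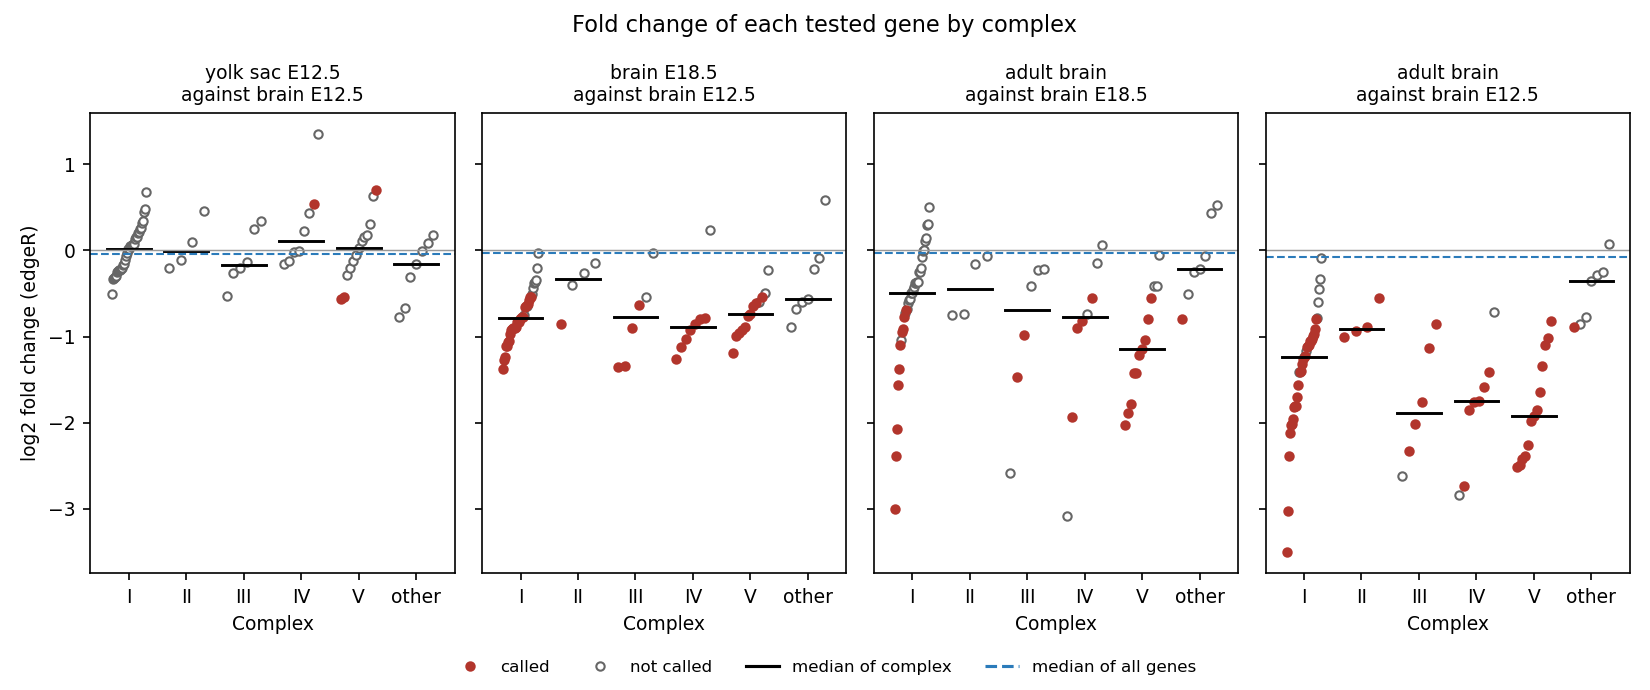
Log2 fold changes (vertical axis) of the 73 tested members by complex (horizontal axis), in yolk sac against brain at E12.5 and in the 3 comparisons of brain ages. Filled points are called members, bars the median of a complex and the dashed line the median of all tested genes. Most members lie below 0 in the age comparisons, with medians of -0.77 at E18.5 against E12.5, -0.56 in adult against E18.5 and -1.32 in adult against E12.5 brain, while yolk sac against brain centres on -0.01.

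Complex I takes electrons from NADH and has the most subunits of the chain. Ndufa13, a membrane arm subunit also known as GRIM-19, was at 368 to 542 CPM with a median of 438 at E18.5, against 651, 691, 878 and 1050.5 CPM in E12.5 brain. The groups did not overlap, and the call was lower (log2 fold change -0.89 ± 0.17 SE, adjusted p = 7.71e-05). In adult libraries it was at 291, 329.7, 291 and 443 CPM, which overlapped E18.5 (log2 fold change -0.37 ± 0.19 SE, adjusted p = 0.184). Ndufb8, another membrane arm subunit, had the second largest called change of complex I at this step. It was at 215 to 255 CPM with a median of 249 at E18.5, against 417, 541, 621 and 735 CPM in E12.5 brain (log2 fold change -1.27 ± 0.18 SE, adjusted p = 1.12e-06), again without overlap. In the adult Ndufb8 averaged 175 ± 40.7 CPM, and the further difference from E18.5 did not pass (log2 fold change -0.43 ± 0.23 SE, adjusted p = 0.193).

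Ndufs5 had the largest change of complex I at E18.5, at 28.4 ± 13.2 CPM against 76.3 ± 34.6 CPM in E12.5 brain (log2 fold change -1.38 ± 0.39 SE, adjusted p = 0.00736), but its libraries overlapped and the call was lost without E12.5 brain library 4. Ndufa6 and Ndufv3, both accessory subunits, were lower at E18.5 too, with log2 fold changes of -0.65 and -0.90. Only Ndufv3 of this pair was also called in adult against E18.5 brain, at 163 ± 32.2 CPM in the adult and 317 ± 47.8 CPM at E18.5 (log2 fold change -0.92 ± 0.22 SE, adjusted p = 0.00162).

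Ndufa3 and Ndufa9 were called in the comparisons with the adult and not at E18.5 against E12.5 brain. Ndufa3, an accessory subunit, was at 10.1, 22.0, 31.2 and 53.6 CPM in adult libraries, against 115 to 340.0 CPM with a median of 260.4 at E18.5 (log2 fold change -3.0 ± 0.66 SE, adjusted p = 0.0033), with no overlap. The adult values are 10 UMIs in all, against 242 UMIs at E18.5, and the call was lost with counts summed per plate (edgeR adjusted p = 0.08). Its E12.5 brain values were 526, 460.5, 154 and 144 CPM in 2 well separated pairs, each from its own plate and sequencing batch. The difference of Ndufa3 at E18.5 from E12.5 brain did not pass (log2 fold change -0.50 ± 0.36 SE, adjusted p = 0.346). Ndufa9, which binds a nucleotide near the joint of the 2 arms, was at 22.3 ± 8.79 CPM in the adult, against 122 ± 50.1 CPM at E18.5 (log2 fold change -2.38 ± 0.60 SE, adjusted p = 0.00497). At E18.5 against E12.5 brain Ndufa9 did not pass (log2 fold change -0.64 ± 0.33 SE, adjusted p = 0.157).

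Ndufc2, a membrane arm subunit, did not follow this order. It was lower at E18.5, at 174 to 304 CPM with a median of 237, against 392, 358, 476 and 516 CPM in E12.5 brain (log2 fold change -0.83 ± 0.18 SE, adjusted p = 0.00069). In adult libraries it was at 352, 264, 322 and 429 CPM, with a log2 fold change of 0.50 against E18.5 (95% interval 0.09 to 0.91, adjusted p = 0.08). Adult against E12.5 brain gave -0.33 (95% interval -0.75 to 0.09, adjusted p = 0.226), so neither adult difference passed. Ndufs7, an iron-sulfur core subunit singled out after its values were seen, passed in no comparison of ages, with an adult against E12.5 brain log2 fold change of -0.08 (95% interval -0.53 to 0.36, adjusted p = 0.8). It averaged 220.0 ± 40.4 CPM in E12.5 brain, 170.2 ± 27.5 CPM at E18.5 and 204 ± 29.3 CPM in the adult.

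Complex II oxidises succinate and also serves in the citric acid cycle. All of its 4 genes were tested. Sdhb, the iron-sulfur subunit, was at 189 to 341 CPM with a median of 286 at E18.5, against 407, 457, 476 and 591 CPM in E12.5 brain (log2 fold change -0.86 ± 0.18 SE, adjusted p = 0.000314). These groups did not overlap, and the adult libraries, at 302, 297, 187 and 201 CPM, overlapped those at E18.5 (log2 fold change -0.07 ± 0.21 SE, adjusted p = 0.861). Sdha, which carries the flavin that oxidises succinate, did not pass at E18.5, at 183 ± 26.1 CPM against 199.6 ± 57.6 CPM in E12.5 brain (log2 fold change -0.14 ± 0.22 SE, adjusted p = 0.682). Sdhc and Sdhd anchor the complex in the membrane, and neither passed at E18.5, with log2 fold changes of -0.40 and -0.26. In adult against E12.5 brain all 4 were called lower, with log2 fold changes of -0.90 for Sdha, -0.93 for Sdhb, -0.56 for Sdhc and -1.0 for Sdhd. The calls of Sdha and Sdhc were lost when single libraries were left out, the first without E12.5 brain library 1 or adult library 1 and the second without E12.5 brain library 3 or 4 or adult library 2 or 4. Other settings ended the call of Sdha in 3 of 14, Sdhb in 1 of 15, Sdhc in 10 of 15 and Sdhd in 4 of 15. With sequencing batch as a covariate only the call of Sdhb was kept.

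Complex III passes electrons from ubiquinol to cytochrome c. Uqcrq, a small subunit also known as the ubiquinone-binding protein, was at 232 to 347 CPM with a median of 281 at E18.5, against 585, 584, 741 and 959 CPM in E12.5 brain (log2 fold change -1.34 ± 0.18 SE, adjusted p = 3.11e-07). It was at 201, 98.9, 145 and 107 CPM in the adult (log2 fold change -0.99 ± 0.24 SE, adjusted p = 0.0023 against E18.5). The 3 brain ages did not overlap, and adult against E12.5 brain gave a 5.02-fold lower level. Uqcr11, the smallest subunit, was at 188 to 227 CPM with a median of 222 at E18.5, against 407, 449, 629.9 and 709 CPM in E12.5 brain, without overlap (log2 fold change -1.35 ± 0.19 SE, adjusted p = 9.93e-07). Its further difference in the adult, at 90.5, 264, 135 and 148 CPM, did not pass (log2 fold change -0.41 ± 0.25 SE, adjusted p = 0.261). Uqcrc1, a core protein on the matrix side, was lower at E18.5 (log2 fold change -0.91 ± 0.19 SE, adjusted p = 0.000305), and its adult mean of 198 ± 24.9 CPM did not differ by test from 236 ± 58.8 CPM at E18.5 (log2 fold change -0.23, 95% interval -0.68 to 0.22).

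Uqcr10, another small subunit, followed the later pattern. At E18.5 it averaged 266 ± 56.1 CPM against 383 ± 120.2 CPM in E12.5 brain and did not pass (log2 fold change -0.55 ± 0.27 SE, adjusted p = 0.151). In the adult it was at 60.3, 198, 104 and 0 CPM, against 183 to 316 CPM with a median of 287 at E18.5 (log2 fold change -1.47 ± 0.38 SE, adjusted p = 0.00733). The adult libraries were uneven, with 1 at 0, and overlapped E18.5.

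Complex IV reduces oxygen to water. Cox4i1, the common isoform of its regulatory subunit, was the most abundant member. It was at 1136 to 1300.3 CPM with a median of 1219.5 at E18.5, against 2065, 2126, 2314 and 2267 CPM in E12.5 brain, and at 583, 736, 623 and 617 CPM in the adult. The 3 brain ages were far apart with no overlap, and both steps were called, at E18.5 against E12.5 (log2 fold change -0.85 ± 0.12 SE, adjusted p = 1.2e-06) and in adult against E18.5 brain (log2 fold change -0.90 ± 0.14 SE, adjusted p = 4.28e-06). Both calls held in every setting tried and without any single library. In adult against E18.5 brain 10 of the 27 calls did so: Atp5b, Atp5c1, Atp5e, Atp5h, Cox4i1, Cox6b1, Cox7a2l, Ndufa1, Ndufa9 and Uqcr10.

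Cox6b1, which links the monomers of the complex IV dimer in the intermembrane space, had the largest called change of complex IV in the adult. It was at 60.3, 176, 104 and 53.6 CPM in the adult, against 326 to 445 CPM with a median of 397 at E18.5, a 3.82-fold lower level (log2 fold change -1.94 ± 0.23 SE, adjusted p = 2.43e-08). Every adult library lay below every library at E18.5, and these in turn lay below the 787, 758, 596 and 556 CPM of E12.5 brain (log2 fold change -0.80 ± 0.16 SE, adjusted p = 0.000249). The adult level was 6.64-fold lower than in E12.5 brain. Cox6a1 was lower at E18.5, at 505 to 771 CPM with a median of 622 against 1100.5, 1093, 1337 and 1532 CPM in E12.5 brain (log2 fold change -1.03 ± 0.16 SE, adjusted p = 2.56e-06), and again in the adult, at 442, 329.7, 478 and 416 CPM (log2 fold change -0.55 ± 0.18 SE, adjusted p = 0.0242 against E18.5). This last call was lost without E18.5 library 2 or adult library 2.

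Cox5a and Cox5b, matrix-side subunits of which Cox5b binds zinc, had the 2 largest called changes of complex IV at E18.5. Cox5b averaged 153 ± 32.9 CPM at E18.5, against 367 ± 117 CPM in E12.5 brain (log2 fold change -1.26 ± 0.21 SE, adjusted p = 1.74e-05), and Cox5a 253 ± 31.2 CPM against 545 ± 107 CPM (log2 fold change -1.12 ± 0.22 SE, adjusted p = 0.000235). Neither was called between adult and E18.5 brain, with log2 fold changes of -0.15 for Cox5b and -0.73 for Cox5a. Cox8a, the common isoform of the smallest subunit, was called at both steps (-0.92 at E18.5, -0.82 in adult against E18.5 brain). Cox7c was lower at E18.5 (log2 fold change -0.78 ± 0.29 SE, adjusted p = 0.0439), with overlapping libraries. That call was lost in 8 of 10 fits that left out a single library and in 11 of 14 other settings. At 75.8 ± 56.1 CPM in the adult, against 73.5 ± 25.7 CPM at E18.5, Cox7c did not pass.

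The isoforms known from heart, muscle, testis or hypoxic tissue were sparse. Cox4i2 had 6 UMIs in yolk sac, 4 in E12.5 brain, 1 at E18.5 and 0 in the adult. Cox6a2 had 0, 5, 2 and 0 UMIs in the same groups, and Cox6b2 had 16, 19, 7 and 2. Cox8b, Cox8c, Cox7b2 and Ndufa4l2 had 0 UMIs in all 18 libraries, which in the adult, the shallowest group, allows up to 8.30 CPM. Cox7a1, the muscle isoform, had 36 UMIs in yolk sac and 9 in E12.5 brain, with 40.7, 29.0, 32.4 and 26.0 CPM in yolk sac libraries, against 2.02, 9.36, 8.57 and 4.38 CPM in E12.5 brain. Its libraries did not overlap, but it was too sparse over all libraries to be tested. Cox7a2, the common isoform, was itself recorded with only 25 UMIs in yolk sac, 12 in E12.5 brain, 3 at E18.5 and 4 in the adult.

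Between adult and E18.5 brain 10 of 13 tested complex V genes were called lower, against 10 of 35 in complex I. Atp5e, the epsilon subunit of the rotor stalk, was at 181, 198, 187 and 174 CPM in the adult, against 413 to 619.6 CPM with a median of 501 at E18.5 (log2 fold change -1.43 ± 0.19 SE, adjusted p = 2.03e-07). It was at 862, 859, 1067 and 1159.9 CPM in E12.5 brain, and E18.5 was lower (log2 fold change -0.96 ± 0.14 SE, adjusted p = 2.64e-06). The 3 ages did not overlap, and the adult level was 5.23-fold lower than in E12.5 brain. Atp5b, the catalytic beta subunit, was at 231, 396, 374 and 282 CPM in the adult, against 634 to 999 CPM with a median of 723 at E18.5, with no overlap (log2 fold change -1.21 ± 0.19 SE, adjusted p = 4.47e-06). At E18.5 against the 1408, 1475, 929.8 and 932 CPM of E12.5 brain it was called lower (log2 fold change -0.64 ± 0.16 SE, adjusted p = 0.00188), although the libraries overlapped.

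Atp5c1, the gamma subunit that turns in the head, was called at the later step and not at the earlier one. It was at 40.2, 44.0, 83.1 and 26.8 CPM in the adult, against 138 to 335 CPM with a median of 188 at E18.5 (log2 fold change -2.03 ± 0.35 SE, adjusted p = 2.33e-05), with no overlap. E18.5 against E12.5 brain gave -0.23 ± 0.23 and did not pass (95% interval -0.67 to 0.21, adjusted p = 0.491). Atp5f1, a stator subunit, had the opposite pair of calls, with 208 to 334 CPM with a median of 276 at E18.5, against 429, 425, 479.9 and 521 CPM in E12.5 brain (log2 fold change -0.76 ± 0.18 SE, adjusted p = 0.00179), and 211, 242, 291 and 295 CPM in the adult, where the difference from E18.5 did not pass (log2 fold change -0.05 ± 0.22 SE, adjusted p = 0.901). Whether the 2 steps of a gene differ was not tested, since both use the E18.5 libraries.

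Atp5h and Atp5k, a stator and a membrane subunit, were also lowest in the adult. Atp5h was at 141, 65.9, 31.2 and 67.1 CPM in the adult, against 229.7 to 416 CPM with a median of 264 at E18.5, with no overlap (log2 fold change -1.88 ± 0.27 SE, adjusted p = 1.12e-06). Atp5k averaged 50.5 ± 41.2 CPM in the adult, against 187 ± 51.3 CPM at E18.5 (log2 fold change -1.78 ± 0.36 SE, adjusted p = 0.000297). Both were also called lower at E18.5 against E12.5 brain, but with overlapping libraries, and those calls were lost without single libraries (Atp5h: E12.5 brain 3 or E18.5 library 5; Atp5k: E12.5 brain 1 or 2 or E18.5 library 5). Atp5j2, a membrane subunit, was at 339 ± 75.3 CPM at E18.5, against 667 ± 128 CPM in E12.5 brain (log2 fold change -0.99 ± 0.20 SE, adjusted p = 0.000293), and at 124 ± 82.0 CPM in the adult (log2 fold change -1.43 ± 0.27 SE, adjusted p = 0.000195 against E18.5). Atp5d, the delta subunit of the rotor stalk, was lower at E18.5 (log2 fold change -0.93 ± 0.16 SE, adjusted p = 2.15e-05) and did not pass in adult against E18.5 brain (-0.42, adjusted p = 0.104).

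The 3 genes of the rotor ring encode the same mature protein. Atp5g3 was the most abundant and was lower at E18.5, at 431 ± 89.0 CPM against 980.3 ± 176 CPM in E12.5 brain (log2 fold change -1.19 ± 0.17 SE, adjusted p = 1.24e-06), and lower again in the adult, at 243 ± 46.3 CPM (log2 fold change -0.79 ± 0.21 SE, adjusted p = 0.00556 against E18.5). Atp5g1 was called only in adult against E12.5 brain, at 47.1 ± 12.2 CPM against 100.01 ± 27.5 CPM (log2 fold change -1.01 ± 0.41 SE, adjusted p = 0.047), a call lost without E12.5 brain library 3 or 4 or adult library 2, 3 or 4. Atp5g2 had 5, 5, 3 and 1 UMIs in yolk sac, E12.5 brain, E18.5 and the adult.

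**Figure D3:**
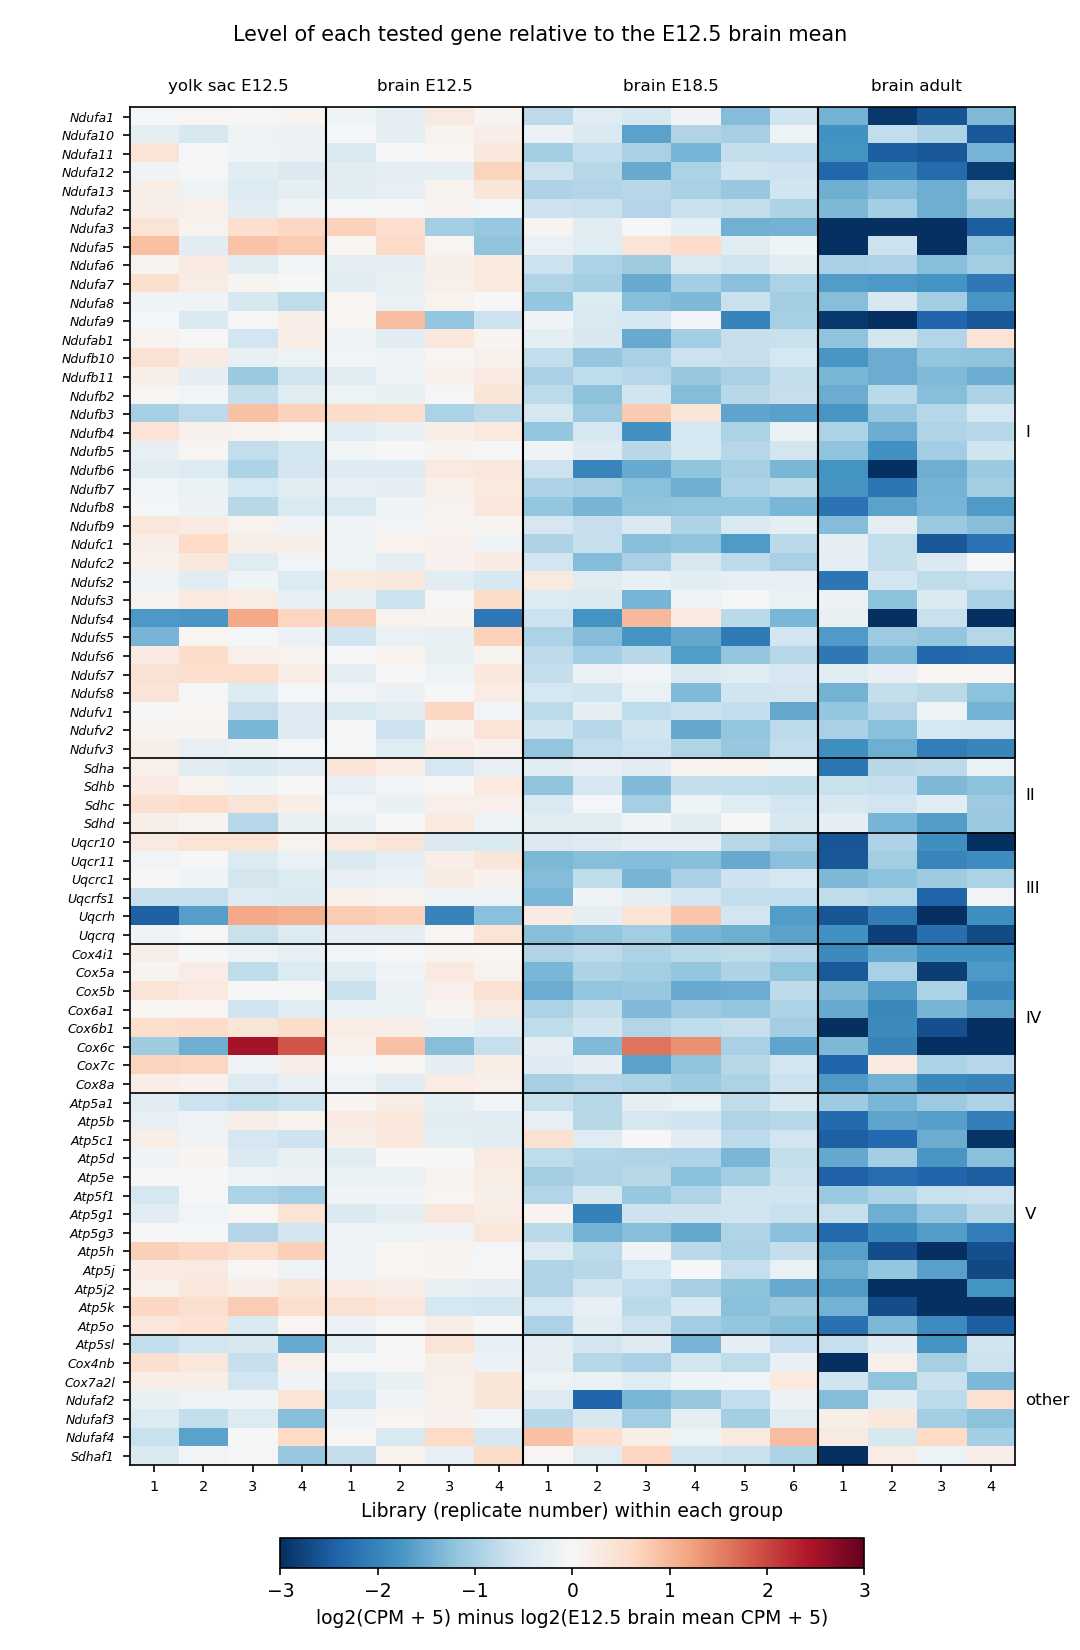
Change of each tested member in each library (columns, by group) as log2(CPM + 5) minus log2(mean of E12.5 brain + 5), with colours limited to ±3 and members (rows) grouped by complex. The E18.5 and adult columns are below 0 for most members, deeper in the adult, and the yolk sac columns lie around 0.

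Of the assembly and other genes, only Cox7a2l passed a test between ages. Cox7a2l, which helps join complex III to complex IV, was at 342, 219.8, 322 and 201 CPM in the adult, against 404 to 631 CPM with a median of 466 at E18.5 (log2 fold change -0.79 ± 0.21 SE, adjusted p = 0.0058), with no overlap. At E18.5 it overlapped the 388, 444, 574 and 661 CPM of E12.5 brain (log2 fold change -0.09 ± 0.18 SE, adjusted p = 0.754, 95% interval -0.45 to 0.27). Atp5sl averaged 55.9 ± 15.3 CPM at E18.5 and 47.7 ± 19.1 CPM in the adult, against 83.6 ± 19.8 CPM in E12.5 brain, and passed in no comparison. Cox4nb, now known as a subunit of an endoplasmic reticulum membrane complex and no part of complex IV, averaged 84.8 ± 19.8 CPM at E18.5 and 71.4 ± 58.8 CPM in the adult, against 129 ± 13.2 CPM in E12.5 brain, and did not pass either.

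Yolk sac and brain at E12.5, sorted with 1 gate, differed in 4 of 73 members, against 15.9% of all tested genes. Cox6b1 and Atp5h were higher in yolk sac (7.04% of all tested genes were) and Atp5a1 and Atp5f1 lower (8.81%). The median log2 fold change was -0.01 for the members and -0.05 for all tested genes, and 37 of 73 lay below 0. Atp5h was at 736, 693, 650.3 and 734 CPM in yolk sac, against 407, 464, 476 and 438 CPM in E12.5 brain, a 1.62-fold higher level without overlap (log2 fold change 0.70 ± 0.19 SE, adjusted p = 0.00809). Cox6b1 was at 981, 987, 864 and 986 CPM in yolk sac, against 787, 758, 596 and 556 CPM in E12.5 brain, 1.45-fold higher and again without overlap (log2 fold change 0.54 ± 0.17 SE, adjusted p = 0.0239). Atp5a1, the alpha subunit of the catalytic head, was at 577, 461, 430.3 and 459.8 CPM in yolk sac, against 765, 837, 591 and 678 CPM in E12.5 brain, with no overlap (log2 fold change -0.54 ± 0.17 SE, adjusted p = 0.0212).

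Atp5f1 was at 318, 446, 236 and 222 CPM in yolk sac, against 429, 425, 479.9 and 521 CPM in E12.5 brain (log2 fold change -0.56 ± 0.20 SE, adjusted p = 0.046), with overlapping libraries. Leaving out single libraries ended 3 of these 4 calls. Atp5a1 was lost without yolk sac library 2, 3 or 4 or E12.5 brain library 1 or 2, Atp5f1 without yolk sac library 1, 3 or 4 or E12.5 brain library 1, 3 or 4, and Cox6b1 without yolk sac library 2 or 4 or E12.5 brain library 3 or 4. Atp5h was kept in each of these, but with the counts of each plate summed 0 members were called, against 7.14% of all tested genes. Leaving out single libraries gave 1 to 4 called members, against 12.6% to 14.6% of all tested genes. Within the 1 sequencing batch that holds both yolk sac and E12.5 brain, 8 of 70 tested members were called, 7 higher and 1 lower in yolk sac. Of all tested genes, 20.5% were called there, 9.37% lower. That batch holds 2 libraries of each of these groups, with each group on 1 plate, so tissue and plate cannot be told apart in it.

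Promoters of these genes are known to hold binding motifs for the factors NRF1, GABPA and YY1, so the members' promoters were searched from 250 bases before to 50 after the start site in RefSeq (GRCm38.p6), where 76 of the 92 genes had an entry. The motifs were GCGCATGCG for NRF1, its looser form GCGCNTGCG (which includes the first), ACCGGAAG for ETS factors such as GABPA and AAGATGGCG for YY1, each on both strands. The first is nearly its own reverse complement, so 1 place can match on both strands. For each of the strict NRF1, ETS and YY1 motifs the promoters of the 2 tested members of highest level that hold it are shown 5′ to 3′ on the gene's strand, with every match of the 4 motifs in capitals. Ndufs7 is among them by that rule. Cox6a1 is chr5:115348909-115349208 (minus strand), Uqcr11 chr10:80406772-80407071 (minus), Atp5e chr2:174464052-174464351 (minus), Sdhb chr4:140961021-140961320 (plus), Atp5j2 chr5:145191492-145191791 (minus) and Ndufs7 chr10:80249199-80249498 (plus).
Cox6a1: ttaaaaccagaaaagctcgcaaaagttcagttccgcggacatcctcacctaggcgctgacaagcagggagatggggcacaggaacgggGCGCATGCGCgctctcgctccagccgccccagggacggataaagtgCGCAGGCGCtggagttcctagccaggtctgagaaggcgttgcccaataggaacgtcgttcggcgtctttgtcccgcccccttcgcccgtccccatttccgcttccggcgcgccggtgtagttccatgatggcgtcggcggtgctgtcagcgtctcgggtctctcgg
Uqcr11: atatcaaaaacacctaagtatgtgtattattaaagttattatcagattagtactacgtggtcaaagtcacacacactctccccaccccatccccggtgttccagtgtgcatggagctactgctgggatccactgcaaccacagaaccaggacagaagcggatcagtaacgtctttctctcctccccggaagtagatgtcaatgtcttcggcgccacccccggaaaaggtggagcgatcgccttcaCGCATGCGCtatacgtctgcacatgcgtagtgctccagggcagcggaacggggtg
Atp5e: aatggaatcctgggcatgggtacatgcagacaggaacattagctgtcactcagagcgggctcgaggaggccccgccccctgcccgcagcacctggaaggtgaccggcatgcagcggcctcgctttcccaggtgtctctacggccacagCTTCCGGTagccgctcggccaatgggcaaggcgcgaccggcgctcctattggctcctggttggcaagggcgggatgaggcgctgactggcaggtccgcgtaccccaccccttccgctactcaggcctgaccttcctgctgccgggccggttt
Sdhb: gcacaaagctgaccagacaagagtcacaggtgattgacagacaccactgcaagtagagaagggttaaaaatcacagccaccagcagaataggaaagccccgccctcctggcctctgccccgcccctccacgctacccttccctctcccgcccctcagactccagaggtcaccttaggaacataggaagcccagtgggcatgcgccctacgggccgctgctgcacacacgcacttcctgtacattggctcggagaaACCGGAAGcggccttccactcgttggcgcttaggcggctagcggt
Atp5j2: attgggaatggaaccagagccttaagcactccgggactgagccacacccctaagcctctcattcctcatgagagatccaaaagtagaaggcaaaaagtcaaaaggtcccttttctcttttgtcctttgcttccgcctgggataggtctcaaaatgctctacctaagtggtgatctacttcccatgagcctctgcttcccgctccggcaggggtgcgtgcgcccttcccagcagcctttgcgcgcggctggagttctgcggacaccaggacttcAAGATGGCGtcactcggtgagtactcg
Ndufs7: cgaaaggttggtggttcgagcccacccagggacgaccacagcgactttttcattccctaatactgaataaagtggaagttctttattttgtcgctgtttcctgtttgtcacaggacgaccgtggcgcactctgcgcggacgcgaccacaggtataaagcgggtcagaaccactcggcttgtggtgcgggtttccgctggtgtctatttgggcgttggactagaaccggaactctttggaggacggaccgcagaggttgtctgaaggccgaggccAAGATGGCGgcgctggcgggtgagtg

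In Cox6a1 the strict NRF1 motif begins 162 bases before the start site and the loose form alone 116 before it, and in Uqcr11 the strict motif begins 5 before it. The ETS motif begins 102 bases before the start site in Atp5e and at base 6 after it in Sdhb. The YY1 motif lies at base 24 in Atp5j2 and at base 25 in Ndufs7. The strict NRF1 motif was found in 9 of the 76 member genes (11.8%), against 1.95% of all genes with a promoter entry, and the loose form in 25 (32.9%), against 7.12%. The ETS motif was found in 7 (9.21%), against 2.60% of all genes, and the YY1 motif in 8 (10.5%), against 1.64%. Counted per promoter, since a gene can have several, the 4 motifs were in 1.75%, 6.31%, 2.30% and 1.4% of all promoters of the same length. Among coding genes with at least 10 CpG in the promoter, 72 of them members, the strict NRF1 motif was in 12.5% of the members, against 4.30% of all such genes, and the loose form in 34.7%, against 16.0%. There the ETS motif was in 9.72% of the members, against 5.26%, and the YY1 motif in 11.1%, against 3.48%.

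Holding a motif did not sort the members cleanly by their change. Of the 64 tested members with a promoter entry, 16 of 23 with the loose NRF1 motif and 27 of 41 without it were lower at E18.5. In adult against E18.5 brain 11 of 23 with it and 12 of 41 without it were lower. The same counts in adult against E12.5 brain were 20 of 23 and 29 of 41. With the YY1 motif 3 of 8 were lower at E18.5, against 40 of 56 without it, and in adult against E18.5 brain 4 of 8 with it, against 19 of 56 without it. With the ETS motif 4 of 6 were lower at E18.5, against 39 of 58 without it, and in adult against E18.5 brain 1 of 6, against 22 of 58. The 6 promoters above include Cox6a1 and Uqcr11, lower at E18.5 without overlap, and Ndufs7, called in no comparison of ages. A match is a string of letters and not a measured binding site, and these counts were not tested.

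The lower share was also seen in the median cell. Each cell was thinned to 300 UMIs, so that shallow and deep cells could be compared. The mean number of UMIs on the 92 genes was 8.65 in yolk sac, 8.61 in E12.5 brain, 5.06 at E18.5 and 3.20 in the adult, and the medians over cells were 8, 8, 5 and 3. In mean over libraries, 0% of yolk sac cells, 0.135% of E12.5 brain cells, 0.816% of E18.5 cells and 4.88% of adult cells held none.

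Cell-cycle transcripts, summed over 40 genes, averaged 4494 CPM in yolk sac, 5907 CPM in E12.5 brain, 4324 CPM at E18.5 and 1447 CPM in the adult. Cells were therefore split by whether they held a cell-cycle UMI. Over libraries, cells with one held 4.74 to 5.38 member UMIs at E18.5 and 3.09 to 3.52 in the adult, against 8.02 to 9.48 in E12.5 brain. Cells without one held 4.70 to 5.33 at E18.5 and 2.97 to 3.33 in the adult, against 7.77 to 9.30 in E12.5 brain. The age groups did not overlap within either kind of cell. The split was made on the thinned cells, so a dividing cell could hold no cell-cycle UMI. Such a UMI was missing in a mean of 30.6% of cells per library in E12.5 brain, 42.3% at E18.5 and 67.3% in the adult. The split therefore does not separate dividing from resting cells, and the part of the cell cycle in the lower shares was not tested. With only the cells that held no cell-cycle UMI, 23 of 60 tested members were called lower at E18.5, against 11.8% of all tested genes, with a median log2 fold change of -0.64 for the members.

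**Figure D4:**
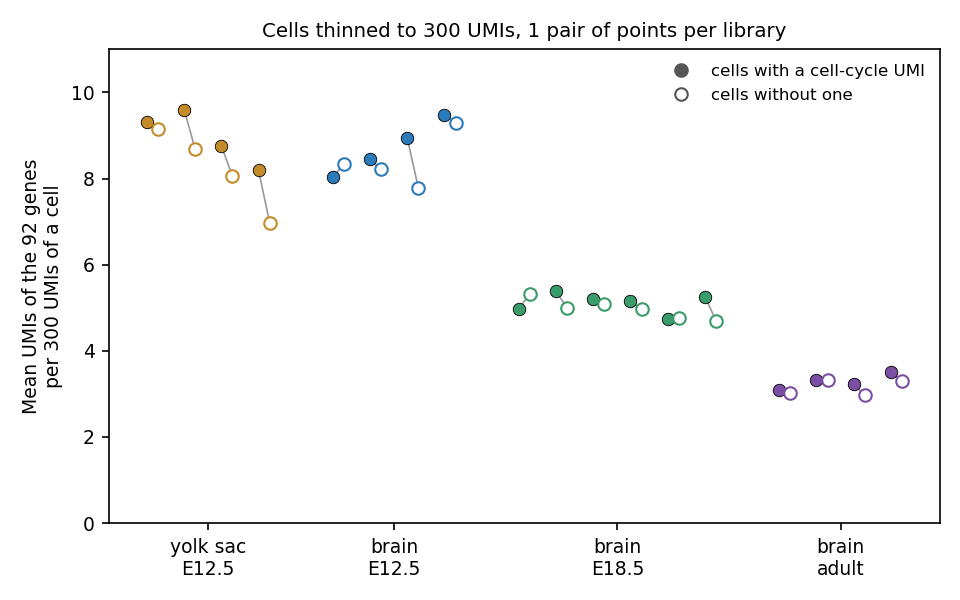
Mean number of UMIs on the 92 genes per cell after thinning each cell to 300 UMIs (vertical axis), per library and group, for cells with a cell-cycle UMI (filled) and without one (open). Both kinds of cell are lower at E18.5 (4.70 to 5.38) and in the adult (2.97 to 3.52) than in E12.5 brain (7.77 to 9.48), with no overlap.

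Other genes moved with the same groups. Immediate early genes, 18 in all, which respond to tissue dissociation among other stimuli, summed to 963 CPM in yolk sac, 647 CPM in E12.5 brain, 5280 CPM at E18.5 and 9723 CPM in the adult. The granulocyte precursor markers given above were highest in the adult as well. Their part in the lower shares of respiratory chain transcripts was not tested. With only cells that held a UMI of C1qa, C1qb or C1qc, which macrophages make, 43 of 73 tested members were lower at E18.5, 27 in adult against E18.5 brain and 54 in adult against E12.5 brain. Of all tested genes in those cells, 11.6%, 11.6% and 19.8% were lower in the same comparisons.

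Some members varied widely between the plates of a group. Over genes with at least 20 UMIs in a pair, the chi-square per degree of freedom between 2 libraries of a plate was 1.86 to 2.11 in yolk sac and 1.5 to 1.66 in E12.5 brain, and between plates it was 4.07 to 5.54 in yolk sac and 4.65 to 5.26 in E12.5 brain. Within a plate it was 1.64 to 2.32 at E18.5 and 2.29 to 2.32 in the adult, and between plates 1.84 to 3.69 at E18.5 and 2.14 to 2.57 in the adult. In yolk sac and E12.5 brain the pairs of a plate were thus closer than any pair between plates, and at E18.5 and in the adult the ranges overlapped. The 2 plates of yolk sac lie in different sequencing batches, as do the 2 plates of E12.5 brain, whereas all E18.5 and adult plates share a batch. Plate and batch therefore cannot be told apart in yolk sac and in E12.5 brain. Uqcrh, the acidic hinge protein of complex III, differed 9.30-fold between the 2 yolk sac plates (means of 442 and 47.5 CPM), 5.26-fold between the E12.5 brain plates and 3.21-fold between the highest and lowest of the E18.5 plates. Cox6c, a complex IV subunit, differed 13.4-fold in yolk sac (295 and 22.0 CPM), 3.21-fold in E12.5 brain and 7.92-fold at E18.5. Neither was called in any comparison, with E18.5 against E12.5 brain log2 fold changes of -0.03 ± 0.68 for Uqcrh and 0.24 ± 0.86 for Cox6c. Ndufb3, a complex I subunit picked after its values were seen, differed 5.37-fold between the highest and lowest of the E18.5 plates (121 and 22.6 CPM), 3.46-fold in yolk sac, 2.83-fold in E12.5 brain and 1.79-fold in the adult. Of members with at least 50 CPM, 3 of 68 in yolk sac, 3 of 69 in E12.5 brain, 3 of 65 at E18.5 and 2 of 55 in the adult differed over 3-fold between plates, and the median over members was 1.26 to 1.34-fold.

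**Figure D5:**
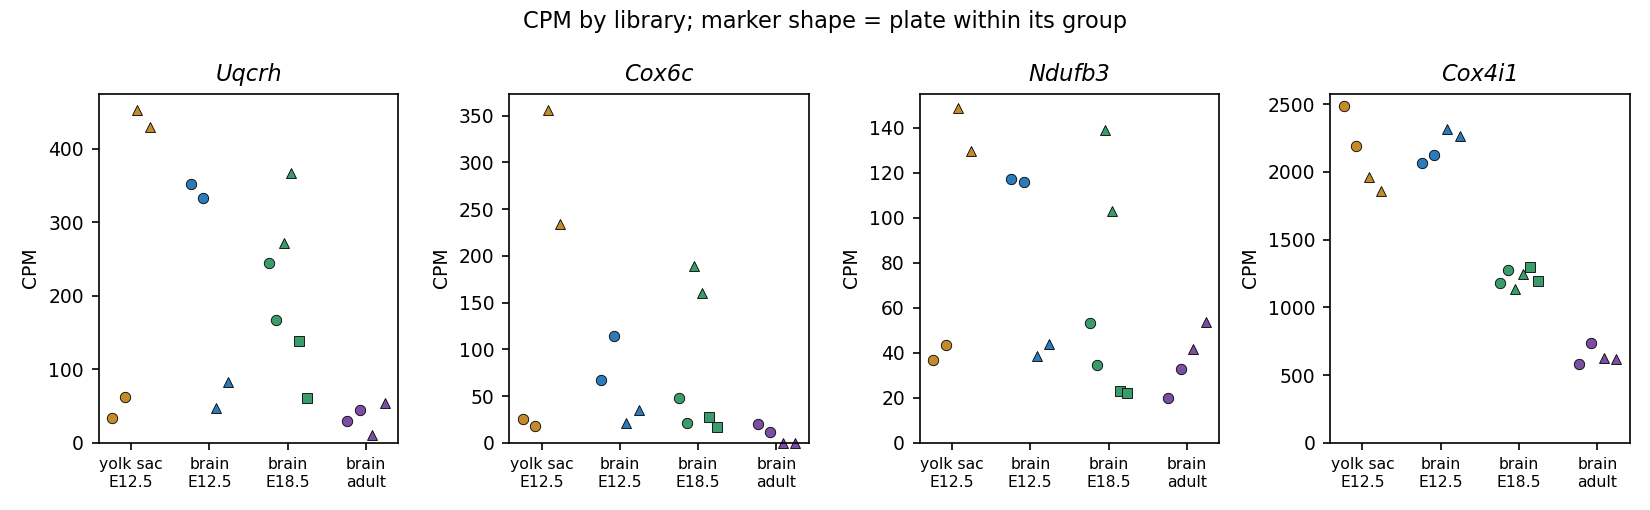
CPM of Uqcrh, Cox6c, Ndufb3 and Cox4i1 (vertical axes) in every library by group, with the marker shape giving the plate within the group. In yolk sac and E12.5 brain the plates stand apart for Uqcrh and Cox6c, by 9.30-fold and 13.4-fold in yolk sac, whereas for Cox4i1 the brain ages are further apart than the plates of any group. The plates of yolk sac and those of E12.5 brain also differ in sequencing batch.

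Related genes were read against the shares of all tested genes called lower, which were 13.4% at E18.5 against E12.5 brain, 11.2% in adult against E18.5 brain and 20.7% in adult against E12.5 brain. Of 9 tested assembly and biogenesis factors, 1 was lower at E18.5 against E12.5 brain (Cox17, a copper carrier for complex IV, -1.33), 0 in adult against E18.5 brain and 4 in adult against E12.5 brain (Surf1, Cox17, Cox19 and Tmem126a), and none was higher. Of 10 tested partners, 3 were lower at E18.5: Cyc1, the cytochrome of complex III (-0.78), Atpif1, the inhibitor of the ATP synthase (-0.71), and Etfb, which feeds electrons from fatty acid oxidation (-0.68). Atpif1 (-0.86) and Etfb (-1.05) were also lower in adult against E18.5 brain, and Cyc1 had a log2 fold change of -0.16 there and did not pass. In adult against E12.5 brain 3 of the 10 partners were lower.

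Of 15 tested genes of pyruvate dehydrogenase and the citric acid cycle, 2 were lower at E18.5 (Idh2, -0.51; Mdh2, -1.07), 1 in adult against E18.5 brain (Idh3g, -1.32) and 5 in adult against E12.5 brain (Cs, Idh3g, Idh2, Fh1 and Mdh2). None was higher. Of 6 tested regulators of mitochondrial biogenesis (Pprc1, Nrf1, Gabpb1, Yy1, Tfam and Myc), 0 were called in any comparison of ages. In yolk sac against E12.5 brain Myc was lower (-0.92). Of 24 tested genes of mitochondrial membrane transport, 7 were lower at E18.5, 6 in adult against E18.5 brain and 12 in adult against E12.5 brain, and Vdac2, a pore of the outer membrane, was higher in both adult comparisons (1.60 against E18.5). With lists this short, the counts of the assembly factors, the partners, the citric acid cycle genes and the regulators lay too near those shares to be a result about the lists. Tomm7, a part of the import pore, was at 18.8 ± 8.62 CPM in the adult, against 92.1 ± 45.6 CPM at E18.5 (-2.19).

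The 19 members that were not tested held 786 of the 97039 member UMIs, or 0.81%. Of these, 4 were at 0 everywhere and 15 had 3 to 172 UMIs over all libraries. They include common subunits: Uqcrb had 6 UMIs in yolk sac, 8 in E12.5 brain, 1 at E18.5 and 0 in the adult, Ndufa4 had 36, 24, 7 and 1, and Atp5l had 1, 1, 0 and 1. Many members are known to have processed pseudogenes, and how reads shared with such copies were assigned is not stated in the files, so levels compared between members are uncertain. Of the transcripts encoded in mitochondrial DNA only 1 row was found, mt-Nd4, and it was too sparse to be tested.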

How the data were processed

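Single cells were profiled by MARS-seq, which sequences the 3' end of polyadenylated RNA, in 18 libraries of 192 wells. The authors deposited UMI counts per gene and well, as whole, unnormalized numbers. Per the submitters' processing notes, bcl2fastq 2.15.0.4 was run and the build was mm9. The aligner, the annotation and how UMIs were collapsed were not given in the sources used here. At most, a deposited count was 256, a possible ceiling of the molecular tag, and the highest of a member in 1 cell was 29.

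Wells with 1 sorted cell and at least 300 UMIs were kept, which left 3012 of 3420. No doublet caller was run. The 36 empty wells held 1008 UMIs, 24 of them on members. Counts were summed per library (74562 to 534219 UMIs) and tested in 1 fit of all 18 libraries with edgeR 4.0.16 (limma 3.58.1, R 4.3.3): TMM factors, filterByExpr, a robust quasi-likelihood F-test and Benjamini-Hochberg adjustment at 0.05. The script was tested on simulated data. DESeq2 1.42.0, other scalings, filters, cell selections, batch terms and left-out libraries were alternatives. The floor of detection was 3 counts per group and covers counting error only. Intervals of fold changes are 1.96 SE wide on each side, with the SE worked back from the F statistic. They cover the spread between libraries, which may be technical.

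Named members were the 3 of highest level per complex, up to 2 called with the largest change and the highest not called per complex and comparison, complex II, and the isoform sets. The members and lists were chosen with earlier results of these data known. Genes of 5 or fewer in a count, and those said to be picked, were named after their values were seen. Promoters are from RefSeq (GRCm38.p6), matched by symbol for all 92 members, 4 by an older symbol.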

Additional observations from a re-analysis of the deposited data

Results flagged for a closer look

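Among groups of 4 to 6 libraries, 184 sets of values were examined for a library far from the others, of which chance alone would mark about 1 in 20, and 4 were marked. The summed complex IV transcripts of E18.5 library 2 were 3628 CPM, against 3198 to 3336 CPM in the other libraries at E18.5. Uqcr11 in E18.5 library 5 was at 188 CPM, against 213 to 227 CPM in the others. Cox6b1 in yolk sac library 3 was at 864 CPM, against 981 to 987 CPM in the others. Atp5g3 in E12.5 brain library 4 was at 1243 CPM, against 876 to 904 CPM in the others.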

How the results depend on the processing

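No called member named by rule changed direction under any alternative run. Of the other called members 1 did: Ndufb5, lower at E18.5 against E12.5 brain (log2 fold change -0.54, edgeR adjusted p = 0.0444), had 0.06 with cells of 500 to under 1000 UMIs and did not pass there (adjusted p = 0.94). Of the 48 members lower at E18.5, 40 were tested with those cells and 39 stayed below 0. Ndufc2, not called in adult against E18.5 brain (0.50, adjusted p = 0.08), was higher with libraries thinned to 1 total (0.83, adjusted p = 0.00797), beside 23 of 60 members lower there, against 15% of all tested genes. The number of members lower at E18.5 against E12.5 brain, 48, was 31 with libraries thinned to 1 total, 23 with cells that held no cell-cycle UMI, 17 with cells of 500 to under 1000 UMIs, 13 with sequencing batch as a covariate and 30 with counts summed per plate. The members tested there numbered 60, 60, 48, 76 and 78, against 73, and the cause was not tested. Of all tested genes, 13%, 11.8%, 11.8%, 2.85% and 4.46% were lower in the same order, against 13.4% in the fit reported above. With cells of 500 to under 1000 UMIs, 14 of 48 tested members were lower in adult against E18.5 brain and 30 in adult against E12.5 brain. Of all tested genes, 13% and 19.7% were lower in these 2 comparisons. The yolk sac comparison, with 4 called members, gave 1 with thinned libraries, 1 with cells of 500 to under 1000 UMIs and 0 with counts summed per plate. Of all tested genes, 15.3%, 9.24% and 7.14% were called there. Within the shared batch it gave 8 of 70 tested members, against 20.5% of 4247 tested genes. Leaving out single libraries gave 1 to 4, 37 to 45, 24 to 29 and 52 to 58 called members in yolk sac against E12.5 brain, E18.5 against E12.5, adult against E18.5 and adult against E12.5 brain. Of all tested genes, 12.6% to 14.6%, 18.7% to 22.5%, 16.3% to 21.5% and 32.1% to 36.2% were called in the same order. The log2 ratio of summed complex IV with cells of 500 to under 1000 UMIs was -0.177 in yolk sac against E12.5 brain (0.053 with all cells), -1.213 at E18.5 against E12.5 and -2.010 in adult against E12.5 brain, and that of complex V in yolk sac with cells without a cell-cycle UMI was -0.175. Cells of 500 to under 1000 UMIs numbered only 9 to 60 per E12.5 brain library. Calls held under every setting for 10 members at E18.5, 10 in adult against E18.5 brain and 31 in adult against E12.5 brain. Adult libraries, at 74562 to 99494 UMIs, limit what can be seen of low members. No paired analysis was possible because replicate numbers were given in accession order and pair no libraries.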

Other observations

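In yolk sac against E12.5 brain, some related genes passed the test although only 4 members did. Atpif1 was higher (0.52) and Cyc1 lower (-0.75) among the partners, Idh2 higher (0.53) and Dlst (-0.69) and Mdh2 (-0.79) lower among the citric acid cycle genes, and the assembly factor Tmem70 was lower (-1.22). Summed complex III transcripts were lower in every yolk sac library than in every E12.5 brain library, with a yolk sac mean of 2342 ± 42.9 CPM against 2561 ± 133 CPM in E12.5 brain (SD, n = 4 each), although no member of the complex was called. These values were picked after they were seen.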
